A study of Mus musculus with 6 samples.

Results

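This report describes 10 genes of the integrated stress response in the mouse submandibular gland (SMG), a major salivary gland. They are Atf4, Atf5, Atf3, Ddit3, Nupr1, Trib3, Sesn2, Ddit4, Chac1 and Asns. They were picked by name from the 43280 rows of the unfiltered raw count table because of earlier results of the same comparison, so their differences between genotypes are given as a description and carry no test. All 10 passed the filter of at least 10 counts summed over the libraries, as did 18606 rows in all.

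RNA was sequenced from whole SMGs of adult female mice, with 3 libraries from wild type (WT) mice and 3 from double knockout (DKO) mice. DKO mice lack both Hs3st3a1 and Hs3st3b1, which encode enzymes that add a 3-O-sulfate to heparan sulfate. According to the study's methods, the first exon of Hs3st3a1 was cut with a zinc finger nuclease in embryos that carried a disrupted Hs3st3b1, so that both changes are in the germ line and several founders were obtained. The single knockout strains were kept on a C57BL/6 background. Within each group the library labels run 1, 4 and 5, and the exact age and the founder line of these glands are not given. WT and DKO stand throughout for the libraries so labelled.

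Cells under stress phosphorylate the initiation factor eIF2α, through the kinases PERK, GCN2, PKR or HRI, which lowers protein synthesis as a whole while raising translation of the Atf4 mRNA. ATF4 is a bZIP transcription factor that binds composite C/EBP-ATF response elements (CARE) together with partners such as the C/EBP proteins. It turns on genes for amino acid synthesis and uptake, tRNA charging, feedback inhibitors and, when stress persists, cell death. Secretory cells such as salivary acinar cells make large amounts of protein and depend on these pathways. Because much of the control of ATF4 is translational, mRNA counts measure its protein only indirectly.

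Of the 10 genes, 9 had a higher fitted level in DKO glands and 1, Atf3, a lower one. The median log2 fold change of DKO over WT was 0.89 over the 10 genes, beside 0.00 over all rows tested and 0.03 over the 11489 rows with a mean of at least 50 normalized counts. Levels are given as normalized counts, which are counts divided by a size factor for each library and so are comparable between libraries but not between genes. In 4 genes, Atf5, Sesn2, Chac1 and Asns, every DKO library lay above every WT library, while over all rows tested 9.85% of rows had that order. The groups overlapped in the other 6 genes. In the DESeq2 fit over all rows, 3 of the 10 genes (Trib3, Sesn2 and Chac1) had an adjusted p under the threshold of 0.05, beside 1.02% of all rows in the same direction. Nothing is read from these counts, because the genes were chosen on this contrast. In edgeR and in limma-voom 0 of the 10 genes passed the adjusted threshold, beside 0.0537% and 0.0376% of all rows, and at an unadjusted p under 0.05 the counts were 7 in DESeq2, 6 in edgeR and 5 in limma-voom, beside 12.2%, 15% and 14% of all rows.

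**Figure D1:**
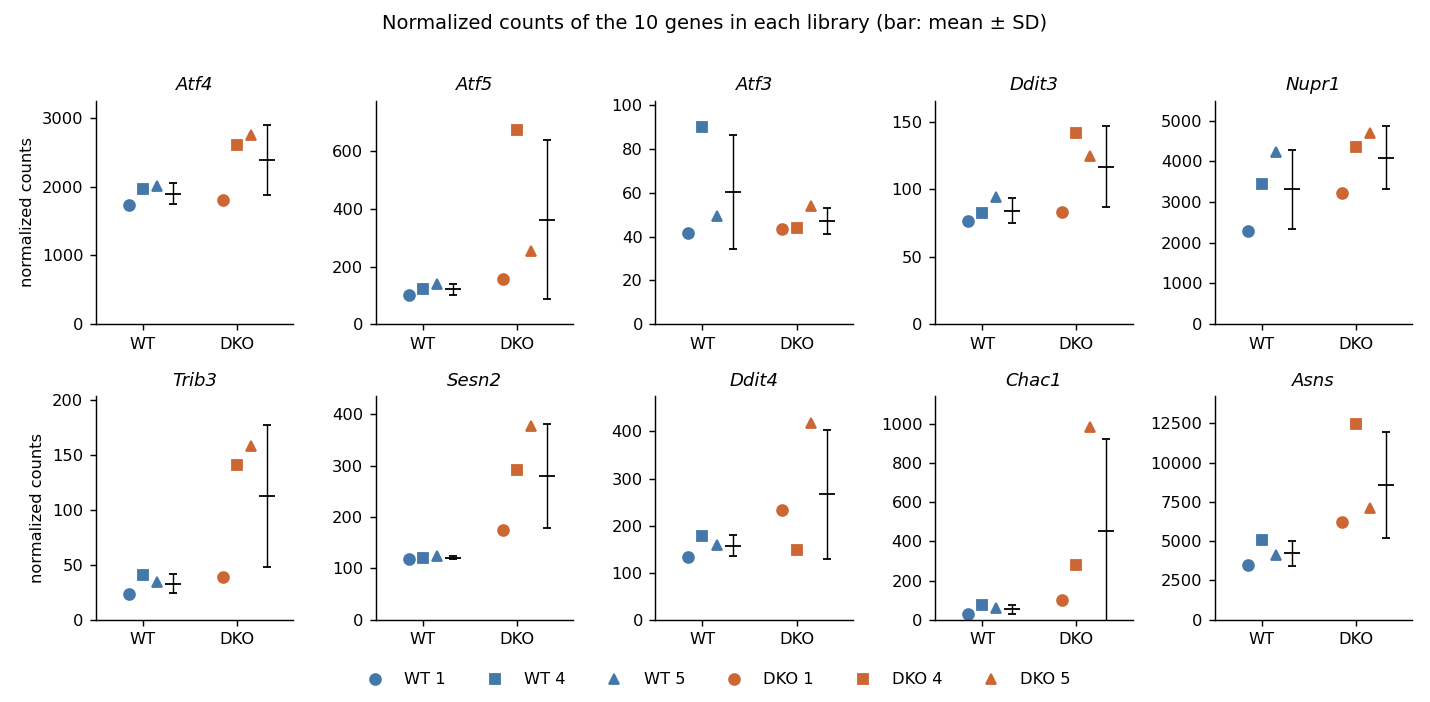
Normalized counts (y axis, from 0, with a scale of its own for each gene) of the 10 genes in the 3 WT libraries (blue) and the 3 DKO libraries (orange), with the library number given by the marker shape and the mean ± SD (n = 3) as a black bar, the lower end of which is cut off at 0 for Chac1. WT 1 is the lowest library in every panel, and DKO 1 lies closer to the WT libraries than DKO 4 or DKO 5 in most panels.

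Total counts were 23674258 to 27325882 in the WT libraries and 25845460 to 29611975 in the DKO libraries, and the size factors were 0.867 to 1.12. The targeted genes did not separate the groups. Hs3st3a1 had 11 to 15 counts in the libraries labelled WT and 8 to 13 in those labelled DKO, and Hs3st3b1 had 173 to 261 and 120 to 255. The counts of the targeted genes therefore gave no check of the labels, and every direction given here rests on the labels alone. Why the counts of these rows did not differ was not tested. The tissue held markers of acinar cells in every library. Aqp5, the water channel of their apical membrane, was at 3983 to 5010 normalized counts in WT libraries and 5502 to 8161 in DKO. Bhlha15, a transcription factor of secretory cells, was at 5714 to 6519 and 6782 to 6796. Of the 7 acinar markers listed, 5 had a positive log2 fold change and 2 a negative one, Slc12a2 (-0.08) and Dcpp1 (-3.64). Dcpp1 was at 13.9, 40.1 and 6592 in WT 1, 4 and 5.

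Several lists of cell type markers held genes called different between the groups in DESeq2 (adjusted p under 0.05). Over all rows 1.02% were called higher and 1.88% lower. In edgeR and in limma-voom 2 of the granular duct markers were called, and 0 genes of the other lists given here. Each list is given as its sum of normalized counts. The summed level was 8544 to 9252 and 4704 to 6140 for 6 myoepithelial markers, of which 5 were called lower. It was 34 to 213 and 5 to 12 for 6 T cell markers, of which 4 were called lower, with Cd8a at 0 counts in all DKO libraries. Macrophage markers summed to 2012 to 3468 in WT and 1319 to 1875 in DKO (4 of 6 lower), and red blood cell markers to 863 to 1772 and 2824 to 3167 (4 of 5 higher). The sums of 7 acinar markers overlapped, at 8370114 to 10194461 in WT and 10028772 to 12270327 in DKO, and nearly all of each sum was the secretory gene Spt1, which was not called, while Aqp5 and Agr2 were called higher. The sums of the granular duct markers also overlapped, at 218724 to 315513 and 225994 to 316815, although 4 of 6 were called lower. Most of each sum was Klk1 (127764 to 184476 in WT and 177278 to 235348 in DKO), which was not called. Ren1, also not called, was at 47169, 48304 and 83.3 in WT 1, 4 and 5. In DKO 1, 4 and 5 it was at 113, 12505 and 23570. Plasma cell markers ranged from 5274 to 12346 and from 1757 to 9302. The part of all these lists in the values of the 10 stress genes was not tested. In whole glands, fewer cells of a type and less RNA per cell cannot be told apart.

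The sequences of the promoters are shown first, since they place the 10 genes relative to the ATF4 binding motif. RefSeq promoters of GRCm38.p6, from 250 bases before to 50 bases after the start, were matched for all 10 genes (11 promoters, 2 of them for Atf5). They were searched on both strands for TGATGNAA, a core of the CARE, and for TGACGTCA, the full cyclic AMP response element, which shares no full match with it. The CARE core occurred in 5 of the 10 genes, beside 4.51% of all 27025 genes with a promoter in the table and 2.90% of those also tested here. The cyclic AMP response element occurred in 0 of the 11 promoters, beside 1.79% of all 32851 promoters. A match is a description of the letters and not evidence of binding, and its absence says only that these letters are not in the window. The 10 genes were listed as ATF4 regulators and targets, so their share beside that of all genes tests nothing.

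The 5 genes with a match are shown because the motif lies at different distances from their starts, with the match in capitals and all else in lower case, 5′ to 3′ on the gene's strand. For Atf3, Nupr1, Chac1 and Asns the 250 bases before the RefSeq start are given, and for Trib3, where the match begins 14 bases after the start, a window of 30 bases. The capitals TTGCATCA and TTACATCA are the core read on the opposite strand.
Atf3, chr1:191183334-191183583, minus strand: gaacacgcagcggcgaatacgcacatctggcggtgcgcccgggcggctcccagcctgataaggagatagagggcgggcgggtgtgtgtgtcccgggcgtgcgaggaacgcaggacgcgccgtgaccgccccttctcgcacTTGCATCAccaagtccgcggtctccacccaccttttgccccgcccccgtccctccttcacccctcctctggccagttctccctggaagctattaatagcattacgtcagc
Nupr1, chr7:126625471-126625720, minus strand: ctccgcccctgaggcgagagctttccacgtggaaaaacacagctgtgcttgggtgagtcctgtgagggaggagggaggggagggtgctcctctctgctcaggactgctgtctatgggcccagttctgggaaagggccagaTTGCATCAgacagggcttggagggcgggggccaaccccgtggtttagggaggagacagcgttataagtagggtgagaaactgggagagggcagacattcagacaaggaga
Trib3, chr2:152344028-152344057, minus strand: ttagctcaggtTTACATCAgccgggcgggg
Chac1, chr2:119350992-119351241, plus strand: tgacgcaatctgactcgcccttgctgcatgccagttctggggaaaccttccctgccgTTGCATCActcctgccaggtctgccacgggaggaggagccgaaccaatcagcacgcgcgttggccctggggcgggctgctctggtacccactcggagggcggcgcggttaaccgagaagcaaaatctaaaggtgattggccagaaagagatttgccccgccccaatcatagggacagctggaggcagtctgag
Asns, chr6:7693210-7693459, minus strand: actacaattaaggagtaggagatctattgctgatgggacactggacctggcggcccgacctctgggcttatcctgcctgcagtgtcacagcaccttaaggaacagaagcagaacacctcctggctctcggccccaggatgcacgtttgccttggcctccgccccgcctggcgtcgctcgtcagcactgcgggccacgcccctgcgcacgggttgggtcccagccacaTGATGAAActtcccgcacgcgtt

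The match began 110 bases before the start in Atf3 and in Nupr1, 193 bases before it in Chac1 and 23 bases before it in Asns. The promoters of Atf4, Atf5, Ddit3, Sesn2 and Ddit4 held no match in this window. The start used by RefSeq for Atf3 and Nupr1 lies 34706 and 5391 bases inside the span that GENCODE M21 gives the gene, so the windows are not the most upstream starts.

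Atf4, the transcription factor that gives the pathway its name, lies at chr15:80255184-80257541 on the plus strand (GRCm38). Its level was 1728, 1961 and 2007 normalized counts in WT 1, 4 and 5, against 1811, 2609 and 2749 in DKO 1, 4 and 5. DKO 4 and DKO 5 lay above all WT libraries, DKO 1 lay between WT 1 and WT 4, and the groups overlapped. Between the groups the log2 fold change was 0.33 (SE 0.15), from 1899 ± 150 (SD, n = 3) to 2390 ± 506 (SD, n = 3), and it ranged from 0.22 without DKO 5 to 0.50 without DKO 1.

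Atf5 (chr7:44812256-44816658, minus strand) encodes a bZIP factor related to ATF4 whose mRNA is also under translational control. It had 101, 123 and 139 normalized counts in the WT libraries and 157, 676 and 255 in DKO 1, 4 and 5. The groups did not overlap, but DKO 4 alone was 5.59 times the WT mean while DKO 1 was 1.30 times that mean. The log2 fold change of 1.58 (SE 0.62) became 0.76 without DKO 4. Exons of Il4i1 and Nup62 on the opposite strand share up to 82 bases with Atf5, and reads of an unstranded library cannot be assigned to one strand there.

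Atf3 (chr1:191170296-191218039, minus strand) encodes an ATF family factor that is induced quickly by many stresses. Its normalized counts were 41.6, 90.0 and 49.3 in the WT libraries and 43.6, 43.9 and 54.2 in the DKO libraries. WT 4 stood above the other 5 libraries, which lay close together, and the groups overlapped. Its log2 fold change of -0.35 (SE 0.36) changed sign without WT 4, to 0.05. It was the single gene of the 10 in which no DKO library exceeded every WT library.

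Ddit3 (chr10:127290774-127296288, plus strand) encodes CHOP, a bZIP factor known for its role in cell death under lasting stress. It had 76.2, 82.2 and 94.0 normalized counts in the WT libraries and 83.5, 142 and 125 in the DKO libraries. DKO 4 and DKO 5 exceeded all WT libraries and DKO 1 did not. For DKO over WT this gave a log2 fold change of 0.47 (SE 0.26), which was 0.30 without DKO 4 and 0.67 without DKO 1. Ddit3 shares up to 68 exonic bases with Mars, a tRNA synthetase gene on the opposite strand with a mean of 1530 normalized counts, and counts within those bases cannot be told apart. GENCODE lists a second gene identifier under the symbol Ddit3 within the same locus.

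Nupr1 (chr7:126623249-126630861, minus strand) encodes a small nuclear stress protein. Its normalized counts were 2294, 3433 and 4218 in the WT libraries and 3219, 4356 and 4689 in the DKO libraries. WT 4 and WT 5 lay above DKO 1, and the spread among the WT libraries, 1.84-fold from lowest to highest, was wider than the difference between the means, 3315 ± 967 and 4088 ± 771 (SD, n = 3). The log2 fold change of 0.30 (SE 0.19) was 0.10 without WT 1 and 0.52 without WT 5. With total counts as the size factor, the median of all rows shifted by -0.23 and the log2 fold changes of Atf4, Nupr1 and Ddit3 were 0.08, 0.06 and 0.22.

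Trib3 (chr2:152337422-152344032, minus strand) encodes a pseudokinase that binds ATF4 and AKT and acts as a feedback inhibitor. It had 23.8, 41.1 and 34.0 normalized counts in the WT libraries and 38.9, 141 and 158 in the DKO libraries. DKO 4 and DKO 5 were 4.28 and 4.79 times the WT mean, while DKO 1 lay below WT 4. Fitted over all 6 libraries, its log2 fold change was 1.77 (SE 0.44), with a range of 1.45 to 2.18 when 1 library was left out.

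Sesn2 (chr4:132492032-132510501, minus strand) encodes Sestrin 2, a leucine sensor that restrains mTORC1 through the GATOR complexes. It had 118, 120 and 124 normalized counts in the WT libraries and 174, 291 and 376 in the DKO libraries. The WT libraries lay within 1.06-fold of each other, and all DKO libraries lay above them, from 1.44 to 3.11 times the WT mean. Sesn2 had a log2 fold change of 1.21 (SE 0.25), between 0.94 and 1.46 with 1 library left out.

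Ddit4 (chr10:59949669-59951834, minus strand) encodes REDD1, an inhibitor of mTORC1 that also responds to glucocorticoids, hypoxia and p53. It had 134, 179 and 159 normalized counts in the WT libraries and 234, 149 and 417 in DKO 1, 4 and 5. It was the single gene of the 10 that was lowest of the DKO libraries in DKO 4, where it lay within the WT range. The log2 fold change of 0.76 (SE 0.30) was 0.29 without DKO 5 and 1.05 without DKO 4.

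Chac1 (chr2:119351229-119354381, plus strand) encodes a γ-glutamyl cyclotransferase that breaks down glutathione. Its normalized counts were 29.7, 74.3 and 60.0 in the WT libraries and 99.6, 281 and 986 in DKO 1, 4 and 5. The groups did not overlap, and within DKO the highest library was 9.90 times the lowest. DKO 5 was 18.0 times the WT mean, DKO 4 was 5.14 times and DKO 1 was 1.82 times. Chac1 had the largest log2 fold change of the 10 genes, 3.06 (SE 0.94), which was 1.80 without DKO 5.

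Asns (chr6:7675169-7693254, minus strand) encodes asparagine synthetase, which makes asparagine from aspartate and glutamine. It had 3514, 5087 and 4100 normalized counts in the WT libraries and 6200, 12461 and 7078 in DKO 1, 4 and 5. Every DKO library lay above every WT library, and DKO 4 was the highest at 2.94 times the WT mean. Asns had a log2 fold change of 1.02 (SE 0.36), from 4234 ± 795 to 8580 ± 3390 (SD, n = 3), and 0.65 without DKO 4.

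**Figure D2:**
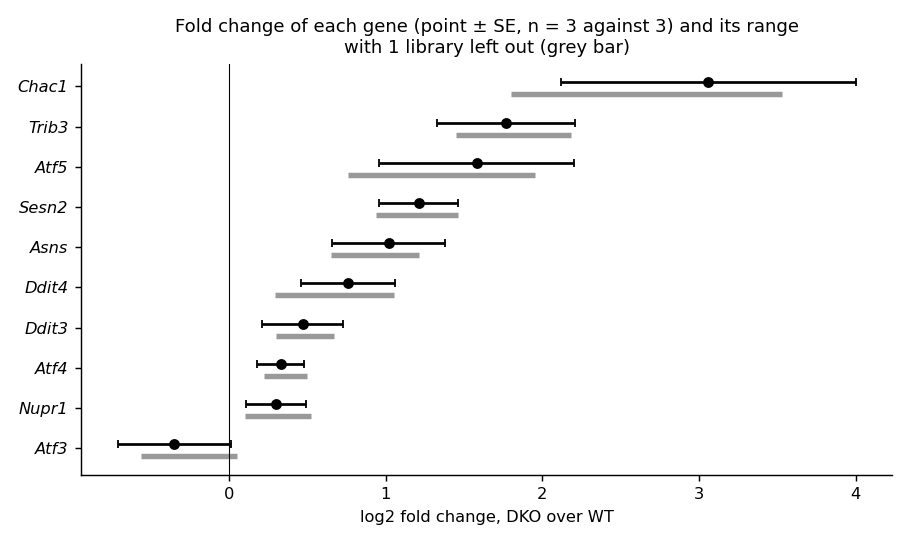
Log2 fold change of DKO over WT (x axis) for each of the 10 genes, as a black point ± SE from the fit with 3 libraries in each group, with the grey bar spanning the values when 1 library was left out. Chac1 is at the top at 3.06 with the widest bar, from 1.80 to 3.53, and the grey bar of Atf3 is the only one that crosses 0.

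Per kilobase of exonic length, which allows levels to be set side by side between genes, 3 genes stood far above the rest. In WT glands the order of mean normalized counts per kilobase was Asns (1548), Nupr1 (1319), Atf4 (805), Ddit4 (89.7), Atf5 (60.7), Ddit3 (49.1), Sesn2 (34.8), Chac1 (33.4), Atf3 (28.0) and Trib3 (15.5). The ranges of neighbours overlapped between Asns and Nupr1, between Atf5 and Ddit3, and among the neighbours from Sesn2 to Trib3. In DKO glands Asns (3137), Nupr1 (1626) and Atf4 (1013) kept the top places, now with no overlap between each and the next. Chac1 followed at 278 ± 286 per kilobase (SD, n = 3), and from Chac1 down to Atf3, the lowest at 21.9, each gene overlapped the next.

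The DKO libraries were unlike each other in these genes. The SD of log2 normalized counts was larger in DKO than in WT for 8 of the 10 genes, beside 62.7% of rows with a mean of at least 50, and its median over the 10 genes was 0.25 in WT and 0.55 in DKO, beside 0.11 and 0.15 over those rows. DKO 1 was the lowest DKO library in 9 of the 10 genes, where 36.0% of rows had that order. DKO 5 was the highest DKO library in 7 genes and DKO 4 in 3, beside 26.4% and 42.5% of rows. DKO 1 exceeded every WT library in 5 genes, DKO 4 in 8 and DKO 5 in 9, beside 27.3%, 41.1% and 34.9% of rows. The median log2 ratio to the WT mean was 0.31 in DKO 1, 1.01 in DKO 4 and 0.91 in DKO 5. On the WT side, WT 1 was the lowest of all 6 libraries in 10 of the 10 genes, an order found in 18.3% of rows. Without DKO 1, 8 genes had no overlap, but with fewer libraries any row meets that order more easily. The share of all rows was not counted there, so the 8 cannot be set against the 4 of the full set. Without WT 1 the number of the 10 genes under the threshold went from 3 to 1, as it did without WT 5. Over all rows the number went from 539 to 151 without WT 1 and to 149 without WT 5.

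Each gene was also set against the mean standardised level of the other 9 over the 6 libraries, as a description in which the genotype difference and the library depth are shared by all points. Pearson's r was 0.98 for Trib3, 0.96 for Atf4, 0.95 for Chac1, 0.91 for Sesn2 and 0.90 for Ddit3. It was 0.81 for Nupr1, 0.80 for Asns, 0.78 for Atf5 and 0.52 for Ddit4, and for Atf3 it was -0.05. The mean standardised level of the 10 genes was lowest in WT 1 (-1.05) and highest in DKO 5 (1.06), and DKO 1 (-0.28) lay between WT 5 (-0.36) and WT 4 (-0.21). Among 11479 other genes with a mean of at least 50 normalized counts, the 8 most like this mean over the 6 libraries were H1f0 (r = 0.995), Gm22179 (0.993), A430105I19Rik (0.992), Cacfd1 (0.990), Adrb1 (0.989), Glmp (0.989), Ifrd1 (0.988) and Ccz1 (0.987). With 6 points a high r is common, and 87 of these genes had an r of at least 0.95.

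Upstream of ATF4, the genes for its kinases, for its translation machinery and for its partners were measured in 22 genes, of which 0 passed the DESeq2 threshold, beside 2.90% of all rows in either direction. At an unadjusted p under 0.05 the counts were 7 in DESeq2, 8 in edgeR and 6 in limma-voom (12.2%, 15% and 14% of all rows), and 0 passed the adjusted threshold in edgeR or limma-voom. The median log2 fold change was 0.18. Every DKO library lay above every WT library in 7 of the 22 and below in 1, beside 9.85% and 10.5% of all rows. Among the 4 eIF2α kinases, Eif2ak3, the kinase PERK of the endoplasmic reticulum, had 2492 ± 324 normalized counts in WT libraries and 2843 ± 501 in DKO (SD, n = 3). Eif2ak4, the amino acid sensor GCN2, had 574 ± 60.8 and 645 ± 95.0. Eif2ak1 had 622 ± 43.7 and 714 ± 36.6, without overlap of the groups. Eif2ak2 was the kinase with a lower DKO mean, at 677 ± 153 and 525 ± 51.8. The largest log2 fold changes of the 22 genes were those of Cebpd at -0.63 (SE 0.33), Cebpb at 0.51 (SE 0.22) and Eif2s2, a subunit of eIF2, at 0.44 (SE 0.14), with adjusted p = 0.382, 0.236 and 0.0566. All 10 genes of eIF2, its exchange factor eIF2B and its phosphatase were highest of the DKO libraries in DKO 4. Over the rows with a mean of at least 50 normalized counts, 42.5% had that order. Calls among the 22 appeared under other settings. Without DKO 1 there were 4 (Eif2s2, Ppp1r15b, Cebpg and Nfe2l1), without WT 4 there was 1 (Ppp1r15b), and with total counts as size factors there were 2 lower calls (Eif2ak2 and Nfe2l2).

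Most other genes known as ATF4 targets had a higher fitted level in DKO glands, but their calls came from DESeq2 alone. Of 45 tested, 24 were called higher and 0 lower in DESeq2 (adjusted p under 0.05), beside 1.02% of all rows called higher and 1.88% called lower, and 30 had every DKO library above every WT library, beside 9.85% of all rows. Their median log2 fold change was 0.62, and 40 of 45 were positive. The calls came from 6 of 10 amino acid enzymes (median log2 fold change 0.92), 6 of 9 amino acid transporters (1.03), 9 of 12 tRNA synthetases (0.59) and 3 of 14 genes for secreted, signalling and survival proteins (0.18). Each adjusted p was over all rows, and the lists were drawn up with earlier results on amino acid genes of these libraries known. The counts set beside all rows are therefore a description and not a test of the lists.

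Among the enzymes, Psat1, of serine synthesis, had 158, 305 and 157 normalized counts in the WT libraries and 453, 1974 and 781 in DKO 1, 4 and 5, which is a log2 difference of 2.37 (SE 0.68, DESeq2 adjusted p = 0.0228). Mthfd2, of mitochondrial folate metabolism, had 107, 122 and 115 in WT and 234, 1046 and 481 in DKO (log2 difference 2.36, SE 0.60, DESeq2 adjusted p = 0.00725). In both genes DKO 4 was the highest library by far and no library overlapped. Shmt2, Aldh18a1, Pycr1 and Gpt2 also rose, with log2 fold changes of 1.02, 0.81, 0.60 and 0.89, while Phgdh (0.93), Pck2 (1.13), Psph (0.75) and Cth (0.90) did not pass.

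Among the transporters, Slc7a5, the light chain of a leucine exchanger, had 673, 966 and 702 normalized counts in WT libraries and 1357, 3416 and 2382 in DKO 1, 4 and 5 (log2 difference 1.61, SE 0.40, DESeq2 adjusted p = 0.00479). Its partner Slc3a2 rose by 1.13 on the log2 scale, and the neutral amino acid transporter Slc1a4 had 202, 214 and 205 counts in WT and 373, 679 and 661 in DKO (log2 difference 1.46, SE 0.21, DESeq2 adjusted p = 7.35e-09). Slc7a1, Slc1a5 and Slc6a9 rose by 0.77, 0.54 and 1.03. Slc38a2 (0.21) and the sparsely counted Slc7a11 (1.70, SE 0.85) and Slc7a3 (0.29) did not pass.

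The tRNA synthetases that rose were Aars, Nars, Sars, Gars, Mars, Eprs, Tars, Yars and Cars, with log2 fold changes of 0.42 to 0.80, while Iars (0.38), Lars (0.47) and Wars (-0.05) did not pass. Of the remaining targets Vldlr, a lipoprotein receptor, Eif4ebp1, a repressor of cap-dependent translation, and Xpot, a tRNA exporter, rose by 0.74, 0.72 and 0.40. The genes tied to cell death did not pass: Bbc3 had a log2 fold change of 0.24 (SE 0.39), Bcl2l11 of -0.30 (SE 0.16), Pmaip1 of -1.04 (SE 0.62) and Tnfrsf10b of 0.71 (SE 0.38). Gdf15, a secreted stress signal, lay between 3.58 and 3.96 normalized counts in the WT libraries and between 10.4 and 21.9 in the DKO libraries (log2 difference 1.94, SE 0.76, DESeq2 adjusted p = 0.157), and Fgf21 had 0 counts in all 6 libraries.

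The 24 calls varied with the test and with the libraries in the fit. In edgeR their adjusted p ranged from 0.0707 to 0.236 and in limma-voom from 0.0953 to 0.281, so that 0 of 45 were called in either, while 35 and 34 had an unadjusted p under 0.05, beside 15% and 14% of all rows. The number called higher was 3 without WT 1, 5 without WT 5, 12 without DKO 4, 10 without DKO 5, 22 without WT 4 and 30 without DKO 1. In the same order, the calls over all rows in either direction were 151, 149, 170, 166, 817 and 740. With all 6 libraries there were 539. Slc1a4, Slc7a1 and Aldh18a1 passed the threshold in all 6 of these DESeq2 fits, with a largest adjusted p of 8.37e-05, 0.0228 and 0.00721.

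**Figure D3:**
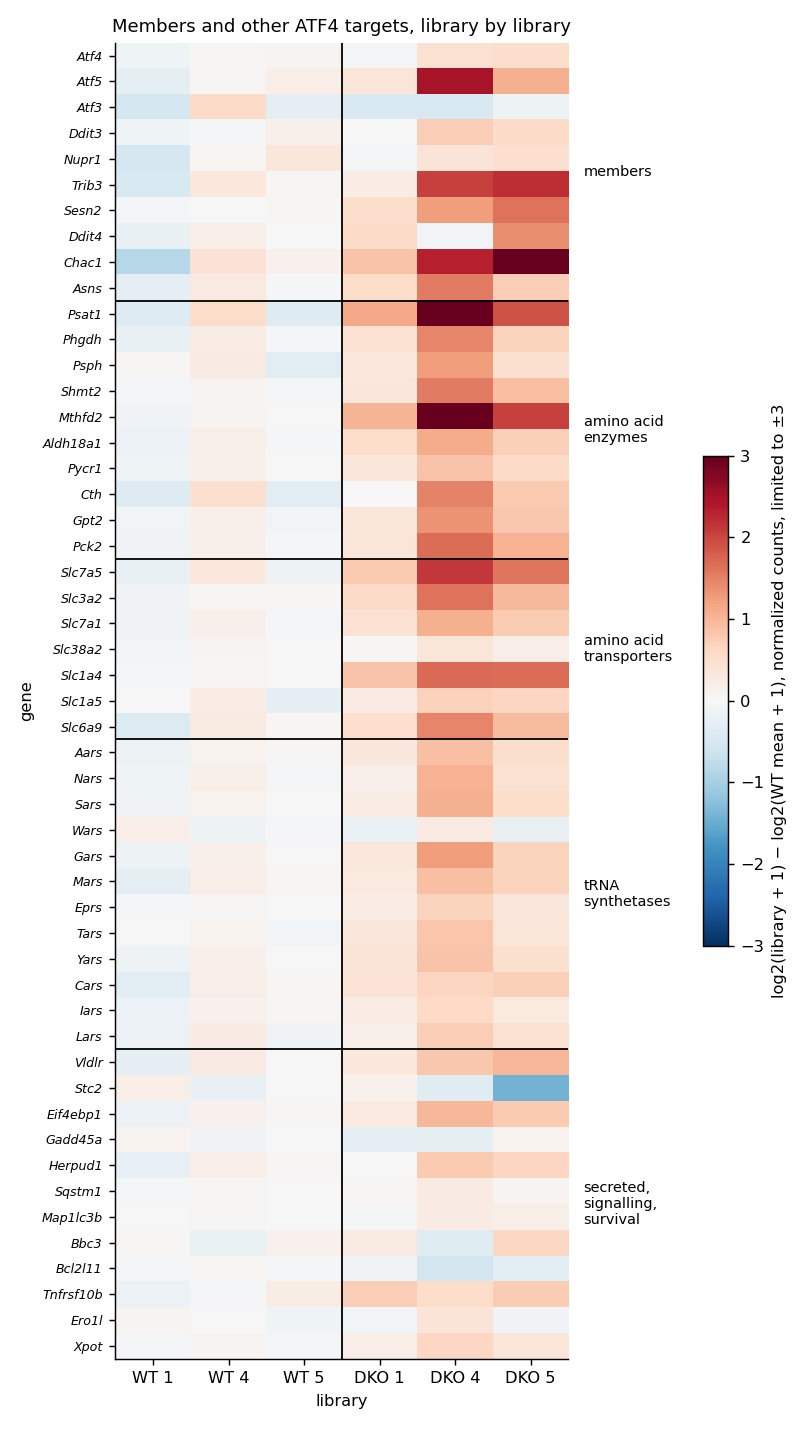
Log2 ratio of each library to the WT mean (color, with a pseudocount of 1 and limited to ±3) for 51 genes in rows, the 10 stress genes at the top and 41 other ATF4 targets with a WT mean of at least 20 normalized counts under them, in the 6 libraries as columns. The darkest column for most of the other targets is DKO 4, while Chac1, Sesn2, Trib3 and Ddit4 are darkest in DKO 5.

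The library pattern of the other targets was not that of the 10 stress genes, although both shared the low WT 1 and the low DKO 1. DKO 1 was the lowest DKO library in 38 of 45 targets (84.4%), beside 36.0% of rows with a mean of at least 50. WT 1 was the lowest of all 6 libraries in 29 of 45 (64.4%), beside 18.3% of those rows. DKO 4 was above DKO 5 in 38 of 45 targets, in 3 of the 10 stress genes (Atf5, Ddit3 and Asns) and in 55.6% of rows with a mean of at least 50. The median log2 ratio of DKO 4 to DKO 5 was 0.34 over the targets, -0.13 over the 10 genes and 0.04 over those rows. The 3 regulators Trib3, Sesn2 and Ddit4 were all higher in DKO 5, whereas the 10 amino acid enzymes were all higher in DKO 4, as Asns was. These are counts over genes within single libraries, and the difference between the lists was not tested. The marker lists also differed between these libraries: the median log2 ratio to the WT mean was -1.04 in DKO 4 and -2.54 in DKO 5 over 7 plasma cell markers, and 0.44 and 0.34 over 7 acinar markers, and their part in the pattern was not tested.

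**Figure D4:**
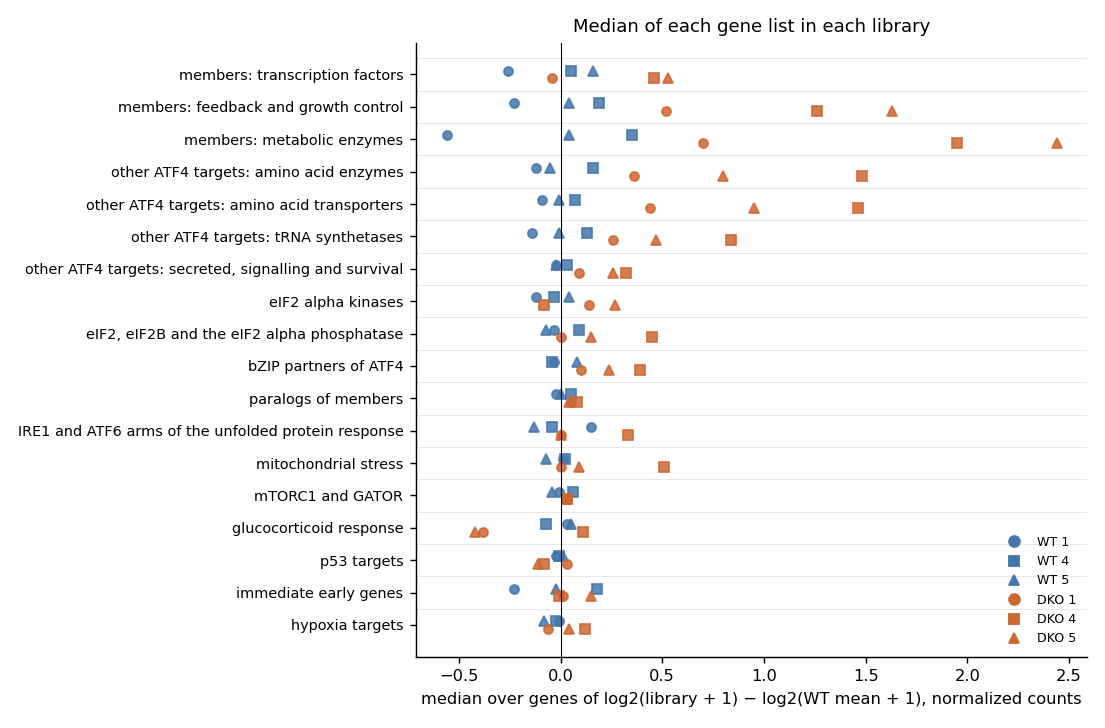
Median over the genes of each list of the log2 ratio to the WT mean (x axis, pseudocount of 1) in each of the 6 libraries, with WT in blue, DKO in orange and the library number given by the marker shape. For the amino acid enzymes, transporters and tRNA synthetases DKO 4 is the farthest to the right and DKO 1 the nearest to the WT libraries, while the mTORC1, p53 and hypoxia lists lie near 0 in all libraries.

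The same promoter motif was counted in the other targets. Of 33 with a promoter in the RefSeq table, 12 (36.4%) held the CARE core and 0 the cyclic AMP response element. Of all genes with a promoter, 4.51% and 2.03% held them. The 33 were listed as known ATF4 targets, so these shares are a description only. The 12 included Pycr1, Slc1a4, Aars, Gars, Tars, Yars and Vldlr, which were called higher, and Pck2, Slc7a11, Iars and Herpud1, which were not, beside Fgf21, which had no counts.

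The 15 paralogs of the 10 genes showed no common direction, with 8 positive and 7 negative log2 fold changes and a median of 0.02. Trib1, a pseudokinase related to Trib3, was the only one called, at 0.52 (SE 0.16, DESeq2 adjusted p = 0.0345), and it kept its call in 1 of the 6 fits with a library left out (without DKO 1), with an adjusted p of up to 0.368. Beside Sesn2 at 1.21, Sesn1 was at -0.31 (SE 0.12) and Sesn3 at -0.35 (SE 0.16), and neither passed (DESeq2 adjusted p = 0.178 and 0.255). Beside Chac1, the constitutive Chac2 was at -0.03 (SE 0.34), and Ddit4l was at -0.37 (SE 0.26) and Asnsd1 at 0.39 (SE 0.26). Trib2 was at 0.30 and Nupr1l at 0.50. Of the ATF and CREB genes, Atf1, Atf2, Atf6, Atf6b, Atf7, Creb1 and Creb3 lay between -0.15 and 0.17.

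Other pathways that share members with this response were examined by lists. In the IRE1 and ATF6 arms of the unfolded protein response 1 of 18 genes was called, Derl3, an endoplasmic reticulum degradation factor, at 0.48 (SE 0.12, DESeq2 adjusted p = 0.00414), a call kept in 2 of the 6 fits with a library left out (without WT 4 and without DKO 1). The median of that list was 0.14. In DESeq2 0 of 6 mitochondrial stress genes (median 0.19), 0 of 16 genes of mTORC1 and GATOR (0.03) and 0 of 9 hypoxia targets (0.06) were called, with 1, 1 and 0 at an unadjusted p under 0.05. In edgeR and limma-voom 0 genes of any of these lists or of the paralogs were called.

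Of 9 glucocorticoid response genes, listed because Ddit4 responds to glucocorticoids, 2 were called lower in DKO glands by DESeq2 and 0 by edgeR or limma-voom, where 4 had an unadjusted DESeq2 p under 0.05. The glucocorticoid receptor's chaperone gene Fkbp5 was at -0.89 on the log2 scale (SE 0.19, DESeq2 adjusted p = 7.89e-04), a call not kept without WT 1, WT 5 or DKO 5 (adjusted p of up to 0.0626). Zbtb16, a transcription factor, was at -1.04 (SE 0.20, DESeq2 adjusted p = 4.09e-05) and was called in all 6 fits with a library left out. Among 9 p53 targets Trp53inp1 fell by 0.77 on the log2 scale (SE 0.17, DESeq2 adjusted p = 7.50e-04), a call lost without DKO 5 (adjusted p = 0.0549), in edgeR (0.147) and in limma-voom (0.167). Among 9 immediate early genes Dusp1, a phosphatase of MAP kinases, fell by 0.88 (SE 0.25, DESeq2 adjusted p = 0.0219), a call kept without DKO 4 and lost without any other library, in edgeR (adjusted p = 0.147) and in limma-voom (0.181). The immediate early list had its highest median in WT 4 (0.18) and its lowest in WT 1 (-0.23), and Atf3 was likewise highest in WT 4 and lowest in WT 1. Whether these orders share a source was not tested.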

How the data were processed

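The authors prepared unstranded Nextera XT libraries, sequenced them on a HiSeq2500 and deposited raw counts per gene symbol. The submitters' processing notes name STAR 2.5.2a, DESeq2, edgeR and limma and the builds GRCh38, GRCm38 and mm10. The counting tool and annotation are not given in the sources used here. The deposited filtered counts and normalized table were not used.

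Rows whose counts summed to 10 or more were tested in DESeq2 1.42.0 (R 4.3.3), the tool of the study's methods, by its two-sided Wald test, with its median-of-ratios factors, no shrinkage of fold changes and Benjamini-Hochberg adjustment over all rows at a threshold of 0.05. DESeq2 gave 2556 rows no adjusted p-value. The labels give 3 glands per group and do not say more of their independence. The p-values treat these libraries as independent and set the group difference against a modelled spread between them. Total counts of at least 23674258 leave counting error small beside the spread between libraries, except for rows with few counts. Spt1 alone held 8386042 of the 23674258 counts of WT 1 and 11647503 of the 29611975 of DKO 4. The depth left for the other rows is therefore below these totals. No pair of libraries of one group agreed within sampling noise (chi-square per degree of freedom 18.3 to 47.6).

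The 10 genes and the lists were chosen with earlier results of these data known. Named are these genes, their paralogs, called genes of each list, the 3 upstream genes of largest change (mean of at least 50 normalized counts) and the 8 genes most like the 10. Picked after their values were seen were targets that were not called, cell markers and the eIF2α kinases. Alternatives were edgeR 4.0.16, limma-voom 3.58.1, other size factors, other filters, a replicate block and each library left out. Loci are those of GENCODE M21 (GRCm38), in which 91.2% of row symbols were found. Promoters are from RefSeq (GRCm38.p6). Overlapping genes on opposite strands cannot be separated in unstranded counts.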

Additional observations from a re-analysis of the deposited data

How the results depend on the processing

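The direction of each of the 10 genes was the same under all alternatives except that of Atf3, which ranged from -0.57 with total counts as size factors (-0.56 without WT 1) to 0.05 without WT 4. Their median log2 fold change was 0.65 with total counts as size factors, 0.80 in limma-voom and 0.68 to 1.03 with 1 library left out. The number of all rows under the threshold was 539, and it was 10 in edgeR, 7 in limma-voom, 1469 with total counts, 343 with the replicate block and 149 to 817 with 1 library left out. For the 10 genes the number under the threshold was 0 in edgeR, 0 in limma-voom, 5 with the replicate block and 1 to 6 with 1 library left out, and the number without overlap was 4 to 8. How many of all rows had no overlap was not counted under these other settings. For the other ATF4 targets the number called higher was 0 in edgeR, 0 in limma-voom, 27 with the replicate block, 18 with total counts and 3 to 30 with 1 library left out. For the upstream genes the number called in either direction was 2 with total counts and 0 to 4 with 1 library left out. The cause of these changes was not tested, and fits with a library left out hold fewer samples. TMM factors and both other count filters kept every count within 1.5 times. Deviations from the group means had an r of -0.133, -0.0244 and -0.259 between libraries of the same number. Between libraries of unlike number, r ran from -0.39 to 0.446. With 3 libraries per group the deviations within a group depend on each other, so these values cannot decide whether the numbers pair the samples.

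With 3 libraries in each group, the spread between the DKO libraries limits every difference, and Atf3, Trib3 and Chac1, with WT counts as low as 24 in a library, carry more counting error than Asns.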
